A study of Mus musculus with 12 samples.

Results

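10 genes that report on NF-kB activity and chemokine output were followed through mouse airway organoids with and without a small laser wound. The set comprised the chemokines Cxcl1, Cxcl2, Cxcl5, Cxcl16 and Ccl20, the cytokine Lif, the NF-kB inhibitors Nfkbia and Tnfaip3, the survival factor Birc3 and the adhesion molecule Icam1. They were found by their gene name among the 55401 genes listed, which gave 10 of 10, and 8 of the 10 reached the count minimum for the test across all genes (at least 10 normalized counts in at least 6 of 12 libraries). Cxcl1 and Cxcl2 did not reach it and were described and tested apart.

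Organoids were grown from airway epithelial cells of adult wild-type C57BL/6J mice, and in both groups they carried a lentiviral Histone2A-mCherry fusion under the p63 promoter. In each of 6 ablation dishes, 10 neighboring cells of each of the 45 organoids were ablated with a femtosecond laser in FluoroBrite DMEM, in each of 6 control dishes none was, and RNA was taken after 4.5 h. The dishes carry the numbers 1, 3, 4, 5, 6 and 7 in both groups, and those of a number share passage and culture day, so that they form 6 pairs. By their library numbers, the dishes of pairs 1, 3 and 5 were made up as a first library set and those of pairs 4, 6 and 7 as a second. The titles of controls 4, 6 and 7 contain the word ablation, while their treatment label reads control, and they were taken as controls. RNA came from whole organoids, with ablated sites and intact epithelium together. In such bulk samples, fewer cells of a type and less RNA per cell cannot be told apart.

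NF-kB transcription factors are held in the cytoplasm by inhibitors of the IkB family until a receptor for TNF, IL-1 or microbial products leads to the destruction of the inhibitor. The freed dimers then enter the nucleus and switch on chemokines, adhesion molecules, survival factors and the genes of their own inhibitors, which end the response. In airway epithelium, this program is known as an early source of the signals that draw neutrophils and other leukocytes to a damaged surface.

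The 9 of 12 libraries whose read counts could be recovered held 23631212 to 29775699 reads assigned to genes. The epithelial and basal cell markers were abundant, with summed Krt5, Krt14, Trp63 and Ngfr of 460451 to 600901 normalized counts after ablation and 457473 to 584128 in the controls. The epithelial markers Krt8 (24986 ± 3138 in the controls) and Cdh1 (15794 ± 1269) were high as well. Of the secretory markers, Cyp2f2 was high (50895 ± 12274 in the controls, SD, n = 6) but Scgb1a1 was near 0 (3.97 ± 3.33) and Scgb3a2 low (14.3 ± 4.00). Of the 3 ciliated cell markers, the tubulin gene Tubb4b, which is not restricted to cilia, was abundant (13397 ± 1958 in the controls and 12307 ± 1458 after ablation). Its log2 fold change was -0.12 (limma adjusted p = 0.811, and 0.147 with the pairs), with each of the 6 pairs lower after ablation, as for 4.63% of all genes tested, and its part in the values below was not tested. The other cilia genes Foxj1 (11.9 ± 5.11) and Dnah5 (3.56 ± 2.33) were near 0 in the controls. The 8 immune markers summed to 179 to 347 after ablation and 185 to 327 in the controls, carried mainly by Cd68 (120 ± 16.0 and 125 ± 23.9) and Itgam (117 ± 51.2 and 122 ± 39.3), with Adgre1 at 0 in every library. The 6 stromal markers, led by Pdgfra (15.1 ± 6.16 in the controls) and Col1a1 (8.25 ± 2.495), reached sums of 17.98 to 42.2 and 17.8 to 48.3, and the 3 endothelial markers, led by Pecam1 (7.36 ± 3.48) and Cdh5 (0.854 ± 0.756), of 2.96 to 8.77 and 4.67 to 14.3. Of the immune, stromal and endothelial markers, 4 reached the count minimum, and 0 were called in either model. Among the epithelial and basal markers, Trp63 was called in a model with the pairs (log2 fold change 0.39, limma adjusted p = 0.00825, higher after ablation in 6 of 6 pairs as were 5.17% of all genes). Its limma adjusted p was 0.0541 without pair 4, where 8 of all genes tested were called, and 0.187 with the library set. The part of Trp63 in the values below was not tested.

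Upstream sequence was available for 8 of the members in RefSeq (GRCm38.p6), as the 250 bases before each annotated start, and not for Cxcl5 and Cxcl16. It was searched on both strands for the kB letters GGGANNNNCC, a core of the sites to which NF-kB dimers are known to bind. The letters occurred in 7 of these 8 genes, Icam1 being the one without a match, and in 17.6% of the 32851 windows of all genes. The narrower letters GGGAANNNCC, which are a part of the former, occurred in 5 of the 8 members (Ccl20, Cxcl1, Cxcl2, Nfkbia and a further Tnfaip3 window that is not printed) and in 4.94% of all windows. Sites with other letters were not searched for. A window or stretch without a match, as in Icam1, may therefore still hold a kB site. 5 of the windows are printed because they show the match that Cxcl1 and Cxcl2 share and those of Ccl20 and of both inhibitors, whose values are described below. The kB matches are in capitals, and each sequence runs from 5′ to 3′ on the strand of the gene.
Cxcl1, chr5:90890995-90891244, plus strand: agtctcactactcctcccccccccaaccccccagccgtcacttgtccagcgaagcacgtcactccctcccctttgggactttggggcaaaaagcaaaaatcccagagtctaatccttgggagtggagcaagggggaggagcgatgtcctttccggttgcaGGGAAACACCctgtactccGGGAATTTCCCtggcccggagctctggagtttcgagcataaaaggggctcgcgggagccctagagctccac
Cxcl2, chr5:90903649-90903898, plus strand: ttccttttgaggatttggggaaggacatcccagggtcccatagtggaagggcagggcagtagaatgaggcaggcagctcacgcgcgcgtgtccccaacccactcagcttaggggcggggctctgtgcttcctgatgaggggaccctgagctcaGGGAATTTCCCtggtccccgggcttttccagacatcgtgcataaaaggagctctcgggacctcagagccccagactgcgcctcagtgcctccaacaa
Ccl20, chr1:83116516-83116765, plus strand: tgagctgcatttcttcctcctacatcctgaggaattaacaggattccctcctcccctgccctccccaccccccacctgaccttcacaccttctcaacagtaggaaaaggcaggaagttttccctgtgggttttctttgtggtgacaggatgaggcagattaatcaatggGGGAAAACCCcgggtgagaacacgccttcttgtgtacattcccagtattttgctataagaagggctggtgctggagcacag
Nfkbia, chr12:55492648-55492897, minus strand: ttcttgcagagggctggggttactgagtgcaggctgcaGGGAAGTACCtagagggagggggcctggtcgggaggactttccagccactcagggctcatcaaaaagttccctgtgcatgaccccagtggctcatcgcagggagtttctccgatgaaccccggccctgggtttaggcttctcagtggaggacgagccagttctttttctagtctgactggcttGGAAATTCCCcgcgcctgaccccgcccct
Tnfaip3, chr10:19015411-19015660, minus strand: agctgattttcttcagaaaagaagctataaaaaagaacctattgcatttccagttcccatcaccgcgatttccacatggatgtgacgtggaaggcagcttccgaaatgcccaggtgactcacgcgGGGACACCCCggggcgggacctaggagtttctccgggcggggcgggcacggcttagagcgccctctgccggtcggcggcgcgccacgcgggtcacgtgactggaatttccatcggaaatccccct

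Cxcl5 (chr5:90759360-90761624), Cxcl1 (chr5:90891241-90893115) and Cxcl2 (chr5:90903871-90905938) lie in this order on the plus strand of chromosome 5. Cxcl1 and Cxcl2 carry the same run of 11 bases, made of overlapping matches on both strands. This run lies 71 to 61 bases before the start of Cxcl1 and 97 to 87 bases before that of Cxcl2. It is part of a run of 14 identical bases, the longest that both windows share. Cxcl1 has a further match 90 to 81 bases before its start. All distances count from the RefSeq start at the end of each window. For Cxcl1, Cxcl2 and Tnfaip3, this start lies inside the gene coordinates used for the counts, so positions relative to those coordinates differ. In Nfkbia, one match lies 29 to 20 bases and another 212 to 203 bases before the start, and in Ccl20 the single match lies 81 to 72 bases before it. The printed Tnfaip3 window holds a kB match at 125 to 116 bases and, 136 to 130 bases before the start, the AP-1 letters TGANTCA, which 6.75% of all windows hold. Among the members, Lif was the other gene with an AP-1 match. A match describes letters in the window and not the binding of a factor.

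The 10 genes differed widely in how much RNA they gave. On the scale of normalized counts per kilobase of exon, Cxcl16 was the most abundant in the control dishes (1048 ± 193, SD, n = 6), and Nfkbia followed with 751 ± 93.8. A middle group consisted of Ccl20 (174 ± 66.2), Icam1 (168 ± 15.7), Birc3 (148 ± 24.1) and Tnfaip3 (146 ± 18.2), and these neighbors did not differ beyond their spread. Lif was lower, with 68.3 per kilobase (51.7 to 83.8), and Cxcl5 lower still with 16.4 ± 6.80. Cxcl2 (3.22 ± 1.28) and Cxcl1 (1.75 ± 2.16) were the least abundant, and their ranges over the control dishes overlapped. The order thus ran from a membrane-bound chemokine and an inhibitor down to neutrophil chemokines with a few counts per dish.

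**Figure D1:**
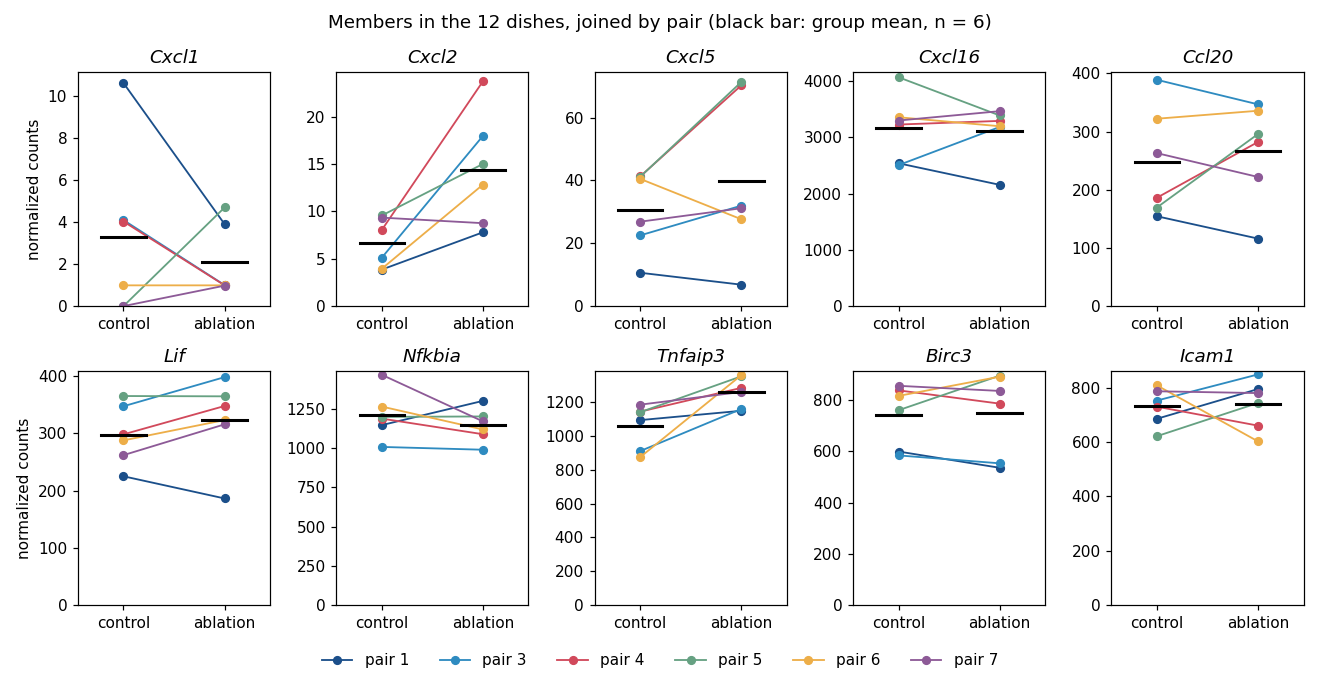
Normalized counts of the 10 members in each of the 12 dishes (linear axes from 0). Lines join the control and the ablation dish of a pair, and black bars are group means of 6 dishes. Tnfaip3 was higher after ablation in 6 of 6 pairs, and Cxcl2 in 5 of 6.

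Cxcl1, Cxcl2 and Cxcl5 encode ligands of the receptor Cxcr2, which guides neutrophils. Cxcl1 had 0.973, 0.994 and 4.69 normalized counts after ablation and 0, 2.51 and 10.6 in the controls (lowest, median and highest dish). At so few counts, 2 of 6 pairs were higher after ablation, and the mean log2 difference of -0.07 had an exact two-sided permutation p of 0.801 (n = 6 per group). Its sign depended on the pseudocount and on single pairs.

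Cxcl2 had 7.80, 13.9 and 23.8 normalized counts (lowest, median and highest dish) after ablation and 3.86, 6.58 and 9.57 in the controls. 4 of the ablation dishes lay above every control dish, whereas ablation dishes 1 and 7 lay within the range of the controls. The means were 14.4 ± 5.97 and 6.65 ± 2.65 (SD, n = 6). The mean difference was 0.99 on the log2(count + 1) scale, and the exact two-sided permutation test gave p = 0.0195, where 0.00216 is the smallest that 6 against 6 dishes allow. Within pairs, Cxcl2 was higher after ablation in 5 of 6, with differences from 0.60 to 1.63, and practically equal in pair 7 (-0.08). Flipping signs within pairs, an exact permutation test gave p = 0.0625 (smallest possible 0.0312), and without pair 3 or without pair 6 the test over dishes gave an exact p of 0.0714. With the count minimum lifted, which was added after the data were seen, limma gave Cxcl2 an adjusted p of 0.0786 in the paired model and 0.696 in the model with the library set. Cxcl2 is thus the member with the largest difference, at a level of a few reads per dish.

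Cxcl5 was more abundant, with 6.82, 31.6 and 71.3 normalized counts after ablation and 10.6, 33.7 and 41.3 in the controls (lowest, median and highest dish). Ablation dishes 4 and 5 exceeded every control, and both dishes of pair 1 were the lowest of their groups. The log2 fold change was 0.19 ± 0.48 (SE, limma adjusted p = 0.949), with 4 of 6 pairs higher after ablation. How reads shared by these related transcripts were assigned is not given in the sources used here.

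Cxcl16 encodes a membrane-anchored chemokine that also acts as a scavenger receptor, and Ccl20 a ligand that attracts cells with the receptor Ccr6. Cxcl16 had 2156, 3245 and 3465 normalized counts after ablation and 2506, 3264 and 4069 in the controls (lowest, median and highest dish). The groups overlapped over most of their range, ablation dish 1 alone lay below all others, and 3 pairs moved up and 3 down. The log2 fold change was -0.02 ± 0.13 (SE), with a 95% interval from -0.29 to 0.25. Exons of Cxcl16 share 552 bases with the oppositely oriented Zmynd15, whose mean level was 70.5 normalized counts.

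Ccl20 ranged from 116 over a median of 289 to 347 normalized counts after ablation and from 154 over 225 to 389 in the controls. Pairs 4 and 5 were higher after ablation, with log2 differences of 0.60 and 0.80, whereas pair 1 went the other way with -0.41 and the other 3 pairs lay between -0.24 and 0.06. The log2 fold change over all pairs was 0.11 ± 0.29 (SE, limma adjusted p = 0.951). Its interval, from -0.51 to 0.72, was the second widest of the tested members after that of Cxcl5 and was narrower in the paired model (-0.22 to 0.44).

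Lif encodes the leukemia inhibitory factor, an IL-6 family cytokine that signals through Lifr, Il6st and Stat3. It had 186, 335 and 398 normalized counts after ablation and 225, 293 and 365 in the controls (lowest, median and highest dish). 4 pairs were higher after ablation by 0.17 to 0.27 on the log2 scale, pair 5 was level, and pair 1 was lower (-0.27). The log2 fold change was 0.10 ± 0.17 (SE) with an adjusted p of 0.917 in limma, and 0.564 with the pairs.

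Nfkbia encodes IkBalpha, the classical inhibitor that NF-kB itself induces, and Tnfaip3 encodes A20, which removes ubiquitin chains needed for signaling to NF-kB. Nfkbia had 988, 1142 and 1298 normalized counts after ablation and 1006, 1191 and 1464 in the controls (lowest, median and highest dish), with 2 pairs higher and 4 lower. Its log2 fold change was -0.08 ± 0.08 (SE, limma adjusted p = 0.845, or 0.519 with the pairs). The 95% interval from -0.26 to 0.10 bounds the average over both library sets in whole organoids. With the pairs as a term, the log2 fold change was 0.05 in the first set alone (95% interval -0.09 to 0.20). In the second set alone it was -0.21 (-0.36 to -0.06, limma unadjusted p = 0.0105, adjusted p = 0.207).

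Tnfaip3 had 1147, 1271 and 1358 normalized counts after ablation and 874, 1116 and 1184 in the controls (lowest, median and highest dish). 4 ablation dishes lay above every control dish, and the lowest ablation dishes, 1 and 3, lay within the upper range of the controls. The means were 1259 ± 90.9 and 1057 ± 131 (SD, n = 6). Each of the 6 pairs was higher after ablation, by 0.07, 0.35, 0.17, 0.25, 0.63 and 0.09 on the log2 scale for pairs 1, 3, 4, 5, 6 and 7, a direction seen in 5.17% of all 13792 genes tested, with a further 4.63% lower in every pair. The log2 fold change was 0.26 ± 0.08 (SE), with a 95% interval from 0.08 to 0.44 and an unadjusted p of 0.00782 in limma. An unadjusted p under 0.05 was reached by 4.15% of all genes upward and by 3.7% downward. After adjustment over all genes, p was 0.537 with the library set and 0.0812 with the pairs as a term, so Tnfaip3 was not called in either. It passed at a limma adjusted p of 0.0174 in the paired model without the count minimum, which was added after the data were seen. That fit called 201 of 28534 genes higher and 155 lower. Leaving out pair 6, the pair with the largest difference, gave 0.18, and the other pairs left out in turn gave up to 0.30.

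Birc3 encodes cIAP2, an inhibitor of apoptosis that also acts in TNF receptor signaling, and Icam1 the adhesion molecule that holds leukocytes through beta-2 integrins. Birc3 had 535, 809 and 894 normalized counts after ablation and 583, 787 and 854 in the controls (lowest, median and highest dish). The dishes of pairs 1 and 3 formed a low cluster from 535 to 598 in both groups, and all others lay at 759 or more. Pairs 1 and 3 are those at 14 passages after the second, the others were at 15 or 16, and the part of passage was not tested. The log2 fold change was -0.00 ± 0.11 (SE), with an interval of -0.25 to 0.25. Icam1 varied least of the 10, by 1.41 times between the lowest and the highest dish, with 602, 762 and 848 normalized counts after ablation and 621, 741 and 808 in the controls. Its log2 fold change of 0.01 ± 0.09 (SE, limma adjusted p = 0.989) averaged opposite differences in the library sets. Their interaction, described below, was not called. Exons of Icam1 share 511 bases with the oppositely oriented Gm47079 (mean 9.14 normalized counts). The libraries were stranded, but the strand setting of the counting is not given in the sources used here.

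In the model with condition and library set, 0 of the 8 tested members were called at an adjusted p under 0.05, as were 0% of all genes, while 1 member (Tnfaip3) and 1083 genes had an unadjusted p under 0.05. In the paired model, 0 of the 8 were called again, beside 0.674% of all genes called higher and 0.413% called lower. edgeR on the read counts of 9 libraries also called 0 of the 13634 genes it tested, with 788 at an unadjusted p under 0.05. 5 of the 8 members had a fold change above 0 and 3 below, with a median of 0.05, against -0.00 over all genes, of which 48.5% were higher. The 95% intervals of the library set model bound the change of Icam1, Nfkbia, Birc3 and Cxcl16 to less than 0.30 on the log2 scale in either direction. These bounds hold for the average over both library sets and not for each set alone.

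**Figure D2:**
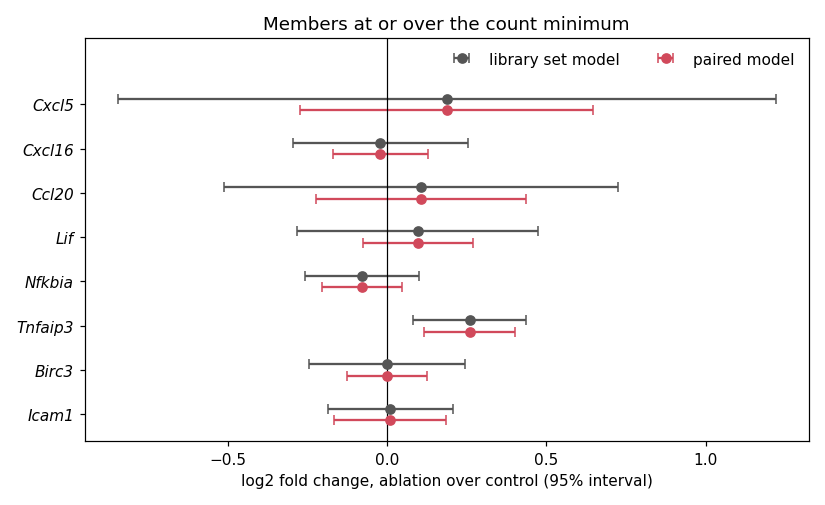
Log2 fold change of ablation over control for the 8 members at or over the count minimum, with 95% intervals from limma (gray, library set as a term, and red, pairs as a term). The intervals of Tnfaip3 lie above 0 (0.08 to 0.44 in the library set model), those of the other 7 members include 0.

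For most of the tested members, more of the log2 variance lay between pairs than within them. The share of the log2 variance that lay between pairs was 93.6% for Birc3, 89.3% for Cxcl5, 88.2% for Lif, 81.3% for Cxcl16 and 80.5% for Ccl20, against a median of 67.6% over all genes tested. It was 64.8% for Nfkbia, 35.7% for Icam1 and 27.5% for Tnfaip3. The remainder holds the ablation difference and the residual spread within pairs together, and these were not separated. Pair 1 had the lowest mean level in 5 of the 8 tested members (Cxcl5, Cxcl16, Ccl20, Lif and Birc3), and 23.1% of all genes were lowest in this pair. Cxcl5 had a pair mean of 8.72 normalized counts in pair 1 and 56.3 in pair 5, the widest span of the tested members. Ccl20 was highest in pair 3 (368) and lowest in pair 1 (135). Nfkbia and Tnfaip3 were lowest in pair 3 instead, with 997 and 1034. Pair 1 had also few Tnf transcripts, with 2.92 and 6.76 normalized counts after ablation and in the control, where the other 10 dishes lay between 10.5 and 34.7. Tnf was chosen after its values were seen, and its part in the levels of the members was not tested.

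**Figure D3:**
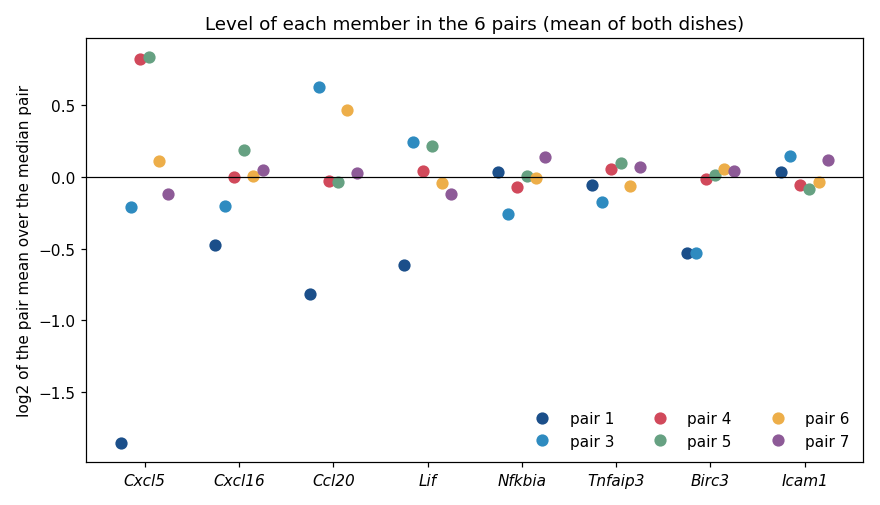
Level of the 8 tested members in the 6 pairs, as log2 of the mean of both dishes over the median pair. Pair 1 (dark blue) lies lowest for Cxcl5, Cxcl16, Ccl20, Lif and Birc3, whereas the pairs lie close together for Tnfaip3 and Icam1.

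Between library sets, which go along in part with passage (14 or 15 passages after the second in pairs 1, 3 and 5, and 15 or 16 in pairs 4, 6 and 7), 0 of the 8 members were called, beside 0.689% of all genes higher and 0.261% lower in the second set. Birc3 had the largest difference relative to its error, 0.38 ± 0.11 (SE) on the log2 scale (limma adjusted p = 0.105). As the dishes of a pair deviate together, 12 dishes overstate the number of independent samples. On pair means, 3 against 3, the adjusted p of Birc3 was 0.506, with 0 genes called and 1293 at an unadjusted p under 0.05. Without pair 5, the fit over dishes called 2 members higher in the second set, Birc3 (0.56, limma adjusted p = 0.00326) and Cxcl16 (0.36, limma adjusted p = 0.0374). The same fit called 488 of all 13792 genes higher and 358 lower. The first set then holds only pairs 1 and 3, both at 14 passages after the second, and the second set only 15 or 16. In that fit, library set and passage cannot be told apart.

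The response to ablation was also compared between the library sets by an interaction term, which called 0 of the 8 members and 0% of all genes. Icam1 came closest. It was higher after ablation in the 3 pairs of the first set, by 0.21, 0.17 and 0.26 on the log2 scale in pairs 1, 3 and 5, and lower in the 3 pairs of the second, by values of -0.14, -0.42 and -0.01 in pairs 4, 6 and 7. The interaction was -0.41 ± 0.15 (SE), with an unadjusted p of 0.0187 and an adjusted p of 0.999 in limma, and with the pairs as a term 0.00348 and 0.439. Without pair 6, the Icam1 interaction was -0.29 ± 0.16 (SE, limma unadjusted p = 0.103), and with each other pair left out it lay between -0.50 and -0.39. For Nfkbia, the interaction was -0.26 ± 0.16 (SE), with an unadjusted p of 0.120 and an adjusted p of 0.999, and with the pairs as a term -0.26 ± 0.09 (SE), 0.0151 and 0.585. Tnfaip3 differed in the same direction in both sets, with a log2 fold change of 0.22 in the first set alone and 0.30 in the second, and an interaction of 0.08 ± 0.17 (SE).

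The lists of related genes were chosen with results of these data known. Of the 26 NF-kB components, which include the transcription factor subunits, the IkB kinases and the adaptors of TNF receptor signaling, 26 were tested and 0 were called in either model. 17 had a fold change above 0 and 9 below, from -0.20 to 0.16, with a median of 0.02. The most abundant were Tab2, an adaptor of the kinase Map3k7 (4768 ± 186 normalized counts after ablation, 4916 ± 178 in the controls), and Nfkb1, the precursor of the p50 subunit (3904 ± 119 and 3934 ± 136). All 26 reached the count minimum, and Tab2 and Nfkb1 were well expressed in each dish.

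Of 36 other feedback regulators and targets of NF-kB, 29 were tested. The library set model called 0 of them and the paired model 2, both higher after ablation, where 0.674% of all genes were called higher. Nfkbiz, an atypical nuclear IkB protein that cooperates with NF-kB at secondary response genes, had 1181 to 2249 normalized counts after ablation and 1037 to 1562 in the controls. Its means were 1785 ± 472 and 1277 ± 193 (SD, n = 6), and the log2 fold change was 0.45 ± 0.07 (SE, paired model), an adjusted p of 0.0135 with the pairs and 0.537 with the library set. Ier3, an immediate early gene that acts on survival under stress, had 675 to 1354 normalized counts after ablation and 581 to 1150 in the controls, and a log2 fold change of 0.33 ± 0.05 (SE, paired model). Its adjusted p was 0.0127 with the pairs and 0.690 with the library set. The groups overlapped for both genes, but 6 of 6 pairs were higher after ablation, as for 5.17% of all genes. Both calls were lost without pair 4, at limma adjusted p of 0.0826 and 0.0690 for Nfkbiz and Ier3, and with plain variance moderation, at 0.134 and 0.121. Of all genes, the paired model called 150, but 8 without pair 4 and 0 with plain variance moderation. The log2 fold changes without pair 4 were 0.45 for Nfkbiz and 0.32 for Ier3. The median of the list was 0.05, with 17 genes above 0 and 12 below.

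**Figure D4:**
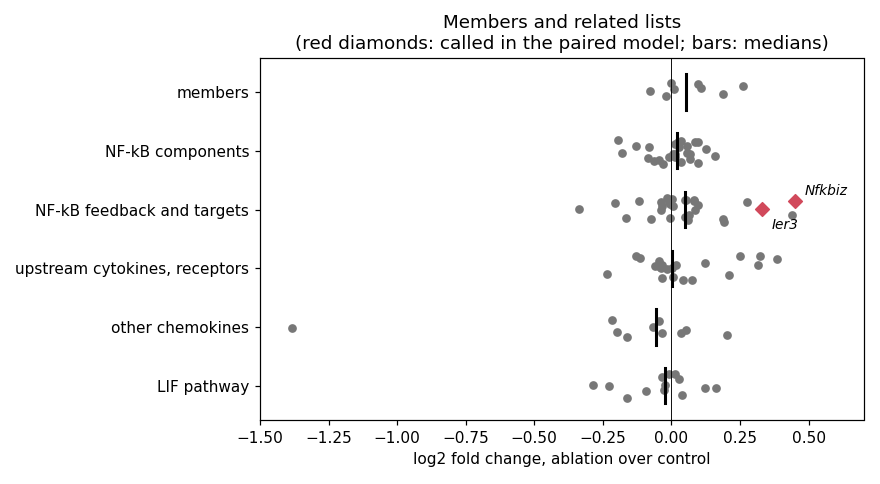
Log2 fold change (library set model) of each tested gene in the members and 5 related lists. Black bars are the medians, and red diamonds the genes called in the paired model, Nfkbiz and Ier3. The leftmost gray point is Ccl11 (-1.38).

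Among 25 upstream cytokines and receptors, 21 were tested and 0 called, with 11 above 0, 10 below and a median of 0.00. The most abundant were Tnfrsf12a, the receptor of TWEAK (4537 ± 1214 normalized counts after ablation, 4240 ± 1035 in the controls), and Ltbr, the lymphotoxin beta receptor (3489 ± 127 and 3596 ± 68.5). Of the 15 genes around LIF signaling, 13 were tested and 0 called, with 5 above 0 and 8 below. Their most abundant genes were Jak1 (5441 ± 195 and 5467 ± 152 normalized counts) and Il6st, the shared receptor subunit gp130 (4511 ± 321 and 4633 ± 433). The specific receptor Lifr was low, with 43.4 ± 10.3 after ablation and 55.4 ± 24.3 in the controls.

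The receptors of the chemokine members were nearly absent from these epithelial cultures. Of 19 chemokine receptors, 2 were tested, Ackr3 (457 ± 175 normalized counts after ablation and 456 ± 134 in the controls) and Ccr2 (60.0 ± 22.3 and 77.0 ± 38.97), and 0 were called. Cxcr2 had at most 4.95 normalized counts in a dish, Ccr6 at most 0.957, and Cxcr6, the receptor of Cxcl16, was listed at 0 in every library. Of 10 genes listed around Icam1, not all of which bind it, 7 were tested and 0 called, with 1 above 0 and 6 below. The cytoskeletal linker Ezr (11881 ± 889 and 11998 ± 1390) and the junctional molecule F11r (11976 ± 895 and 11625 ± 1533) were the most abundant of them.

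Among the chemokine genes examined, Cxcl16 took rank 3 and Ccl20 rank 5 per kilobase of exon in the control dishes. Ppbp (1489 ± 921, SD, n = 6) and Cxcl17 (1099 ± 244) ranked above Cxcl16, but their ranges overlapped with it, and Cx3cl1 (196 ± 28.3) stood between Cxcl16 and Ccl20. Cxcl5 took rank 9, Cxcl2 rank 17 and Cxcl1 rank 19. Of the 29 other chemokines, 10 were tested and 0 called, with 3 above 0 and 7 below and a median of -0.06. Ppbp, itself a ligand of Cxcr2, had a log2 fold change of -0.16 ± 0.55 (SE), and Cxcl17, a mucosal chemokine, of -0.22 ± 0.12 (SE, limma adjusted p = 0.703, and 0.109 with the pairs). Cxcl3, a close relative of Cxcl2, was below the count minimum with 5.01 ± 3.68 normalized counts after ablation and 2.55 ± 1.07 in the controls.

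**Figure D5:**
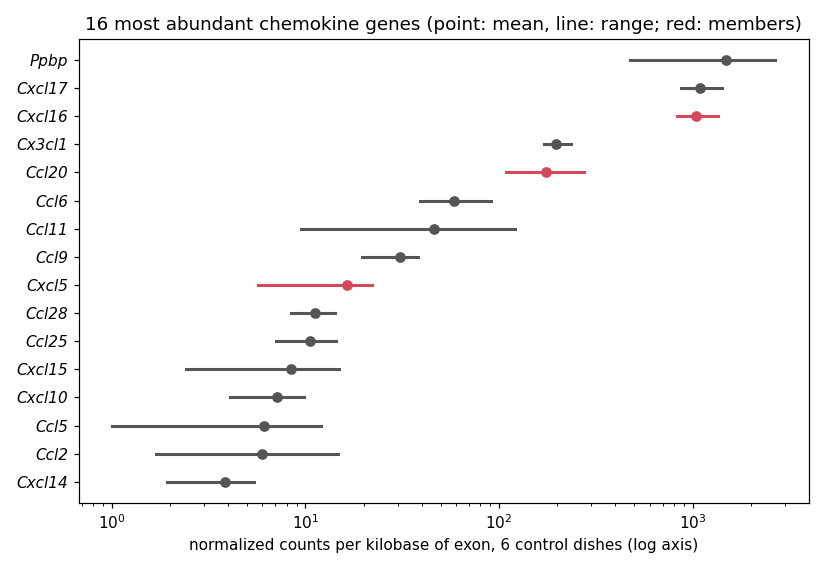
The 16 most abundant chemokine genes in the 6 control dishes, as normalized counts per kilobase of exon on a log axis (point, mean, and line, range over dishes). Members are red; Cxcl16 has rank 3, Ccl20 rank 5 and Cxcl5 rank 9.

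As a description of which genes resembled the members, the standardized log2 values of the 8 tested members were averaged per library. Over the 12 libraries, the genes with the highest correlation with this mean were Gch1 (Pearson r = 0.95), Sox9 (0.94), Has2 (0.93), Gm49539 (0.93) and Gm40614 (0.93). These points share libraries and pairs, and the mean itself followed Cxcl5 (r = 0.89), Cxcl16 (0.85) and Birc3 (0.80) but not Icam1 (-0.02) or Nfkbia (0.12). Within pairs, where each value was taken from its pair mean, other genes came first, Kdelr3 (0.98), Zik1 (0.98), 2810405F17Rik (0.97), Nprl3 (0.96) and Akap11 (0.96). There, Cxcl5 (0.87) and Ccl20 (0.73) followed the mean most closely, and Nfkbia ran against it (-0.24). The dishes of a pair mirror each other within pairs, so these r values rest on 6 differences. The genes named were the highest of all genes tested, and each member is itself part of the mean.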

How the data were processed

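Bulk RNA from 12 dishes of airway organoids was sequenced from stranded, poly(A)-selected libraries. Reads were aligned and counted by the authors in nf-core/rnaseq on GENCODE references (GRCm38.p6) and then tested in DESeq2. As deposited, the signal values are normalized counts, that is read counts of each library over its size factor, with no pooling of dishes. The table as deposited also holds log2 fold changes, score columns (standard errors and Wald statistics) and p-values of the authors' own comparison, which were not used. Each library has a step of which 100% of its values up to about 20 steps are whole multiples, within 0.1 of a step. Higher values were not checked in this way. Dividing by this step gave back read counts in 9 libraries, on which edgeR 4.0.16 was run and called 0 genes. For ablation 3, ablation 4 and control 4 the step was too near 1 to be accepted.

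The 13792 genes that reached 10 normalized counts in 6 or more libraries were fitted with limma 3.58.1 in R 4.3.3 on log2(normalized count + 1), with condition and library set as terms, trended and robust eBayes, and Benjamini-Hochberg adjustment over all genes tested at a threshold of 0.05. A log2 fold change on this scale understates the change of low genes. The authors name a batch as second factor without saying what it was, and the library set, read from the library numbers, was taken for it. The paired model puts the pair in place of the library set. Deviations from the group means correlated between same-numbered dishes with r = 0.618, 0.493, 0.205, 0.317, 0.381 and 0.332 for pairs 1, 3, 4, 5, 6 and 7, so the pairs were used beside the library set. The labels do not say whether dishes are separate cultures, so p-values measure the spread between dishes, which may be technical. By the titles, pairs 1 and 3, pairs 4 and 5, and pairs 6 and 7 each share a passage. Within each of these couples, the dates lie as many days apart as the culture days. The pairs may thus stem from fewer starting cultures and may not be independent of each other. Cxcl1 and Cxcl2 were compared by exact two-sided permutation tests. The scripts were tested on simulated data. The members and the gene lists were chosen with earlier results of these data known. Named are the 10 members and, from each list, the genes called in either model or else the 2 most abundant. Other genes named (Adgre1, Il1rap, Scgb1a1, Dnah5, Tnf, Lifr, Cxcr2, Ccr6, Cxcr6, Cxcl3, Cx3cl1 and Ccl11) were chosen after their values were seen. Alternatives were other pseudocounts (0.5 and 5), no count minimum, plain eBayes, quantile and library sum scaling, edgeR, each pair left out, and each library set alone.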

Additional observations from a re-analysis of the deposited data

Results flagged for a closer look

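Of 20 groups of 6 dishes (10 members in 2 conditions), 1 had a dish far from the others by Dixon's test. Cxcl16 in ablation dish 1 had 2156 normalized counts, and its gap to the nearest dish was 0.785 of the range of the group, above the 95% critical value for a group of this size. Chance alone gives such a dish in about 1 of 20 groups. Control dish 1 of the same pair, with 2539 normalized counts, was low as well.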

How the results depend on the processing

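The limits are a wound of few cells read in whole organoids, 6 pairs, and low counts of Cxcl1 and Cxcl2. No member was called under 25 of the 26 alternatives for ablation against control. Of all genes, the library set model called 0 with other pseudocounts, plain eBayes, quantile scaling or any pair left out, and edgeR called 0. The library set model called 3 genes with library sum scaling and 3 without the count minimum. The replicate block without the count minimum called 1, Tnfaip3, beside 356 of all 28534 genes in that fit. Tnfaip3 and Cxcl5 were higher in each of their 26 alternatives. With the replicate block in place of the library set, 3 list genes were called (Nfkbiz, Ier3 and Trp63) instead of 0, 3 with library sum scaling, 4 with quantile scaling or without the count minimum, 0 with plain eBayes, and 0 to 3 with each pair left out (0 without pair 4). Of all genes, the replicate block called 150, 177 with library sum scaling, 168 with quantile scaling and 356 without the count minimum. It called 0 with plain eBayes and 8 to 176 with each pair left out (8 without pair 4). Between library sets, 0 to 2 members were called with each pair left out (2 without pair 5), and 0 on pair means. Of all genes, 0 to 846 were called with each pair left out (846 without pair 5). The test of different responses called 0 members under its 8 alternatives, with 1 gene of all called with the replicate block added. Where a log2 fold change near 0 changed sign, the values were, for Ccl20, -0.14 in edgeR and -0.032 to 0.21 with each pair left out. For Birc3 they were 0.00025 with quantile scaling (both models), 0.0072 with library sum scaling (both models), 0.00020 in the second library set alone, 0.10 in edgeR and -0.048 to 0.031 with each pair left out. Icam1 had -0.19 in the second set alone and -0.039 to 0.098 with each pair left out, and Cxcl16 0.0097 and -0.094 to 0.028. In the first set alone, Lif had -0.026 and Nfkbia 0.053. Cxcl1 had 0.063 with a pseudocount of 0.5 and -0.59 to 0.18 with each pair left out. The causes were not tested. The replicate block also moved the exact p of Cxcl2 from 0.0195 to 0.0625, and it changed the call of no other member.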

Other observations

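Ccl11, the eosinophil chemokine eotaxin, was the chemokine with the largest fold change among the tested genes of the lists, chosen here after its values were seen. It had 4.95 to 51.7 normalized counts after ablation and 10.2 to 131 in the controls, with a log2 fold change of -1.38 ± 0.60 (SE, limma adjusted p = 0.628, and 0.329 with the pairs), and 2 of 6 pairs went the other way. Il1rap, the accessory chain of the IL-1 receptor, had 515 ± 109 normalized counts after ablation and 407 ± 42.7 in the controls (SD, n = 6). Its log2 fold change was 0.32 ± 0.10 (SE), with 5 of 6 pairs higher and a limma adjusted p of 0.537, or 0.0914 with the pairs. It was also chosen after its values were seen.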
